A study of Mus musculus and Homo sapiens with 41 samples.

Results

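The genes described here are 35 genes of protein folding in the endoplasmic reticulum (ER) and of the unfolded protein response. They were given as a list of names and were matched by symbol, which found all 35 among the 53756 rows of the granulocyte-monocyte progenitor (GMP) table and 34 among the 13238 genes of the 416b table. The names were put together with results of these libraries in view, among them the values of each GMP library, so what the GMP libraries show about the list is a description and not a test of it. Derl3 was not analysed in 416b cells.

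The study asked what the transcription factor PLZF, the product of Zbtb16, does in myeloid progenitors. RNA was sequenced from GMPs of C57BL/6 mice, which were either WT or carried the Zbtb16lu/lu mutation, and from 416b cells, a Cd34+ murine myeloid line transduced with PLZF-Flag or with an Empty vector. In both genotypes the GMPs were sorted from lethally irradiated recipients that had been given bone marrow of that genotype, so what the groups share is a marrow rebuilt after transplantation. The recipients were taken several months after transplantation, and the ages of the donors were not given in the sources used here. The 416b cells were sorted for the fluorescent protein of their lentiviral vector, and PLZF-Flag is an added copy of the gene. The RNA-seq has 1 GEO sample per group. The GMP table holds 2 library columns for each genotype, and 416b cells have 1 column per condition. The GMP column names carry 3 dates, and a WT and a Zbtb16lu/lu library share 1 of them. These are called WT A and Zbtb16lu/lu A, and the others WT B and Zbtb16lu/lu B. What the dates mark is not stated. The methods describe GMP RNA-seq from 3 independent RNA extractions, whereas n here is 2 library columns per genotype, and no further library was analysed. No label ties a library to an animal, so a p-value measures the spread between these libraries, which may be technical.

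Proteins that enter the secretory pathway are threaded into the ER through the translocon, folded there by Hsp70 and Hsp90 type chaperones, lectin chaperones and disulfide isomerases, and sent back to the cytosol for degradation when folding fails. When unfolded protein builds up, the sensors IRE1 (encoded by Ern1), PERK (Eif2ak3) and ATF6 act through the transcription factors XBP1, ATF4 and cleaved ATF6 to raise the folding and degradation genes, and prolonged stress induces CHOP (Ddit3). GMPs make large amounts of granule proteins, such as myeloperoxidase, which are folded in this compartment.

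Zbtb16 itself had 705.0 normalized counts (reads divided by the size factor of the library) in WT A, 828.5 in WT B, 369.1 in Zbtb16lu/lu A and 269.0 in Zbtb16lu/lu B. In 416b cells it had 382.5 with the Empty vector and 2541 with PLZF-Flag. Both follow the labels. The 4 GMP libraries had normalized totals between 38562940 and 40130730. The 9 GMP markers examined were all present, and their sum was 742196 in WT A, 733072 in WT B, 841180 in Zbtb16lu/lu A and 851560 in Zbtb16lu/lu B. It was thus higher in Zbtb16lu/lu without overlap, as were 3 of the 9 markers, the granule protein genes Mpo, Elane and Prtn3 (21.7% of all genes tested were), and the part of this in the ER results was not tested. In 416b cells Cd34 had 11059 and 8823 normalized counts and Kit 6434 and 7267 (Empty vector first), whereas Mpo was near the floor at 12.1 and 3.3.

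The WT libraries differed from each other in the ER genes, and this bears on every GMP result below. WT A was the highest of the 4 libraries for 29 of the 35 genes, compared with 27.9% of all 20531 genes tested. A gene was tested where 2 or more libraries reached a normalized count of 10, which held for all 35 ER genes. The median log2 difference between WT A and WT B was 0.35 over the ER genes and 0.01 over all genes tested, and regardless of sign it was 0.45 and 0.28. Zbtb16lu/lu A and B lay close together, with a median difference of 0.07 in size for the ER genes (0.15 over all genes tested). Together the 35 genes made up 2.34% of the normalized total in WT A, 1.78% in WT B, 1.63% in Zbtb16lu/lu A and 1.57% in Zbtb16lu/lu B.

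**Figure D1:**
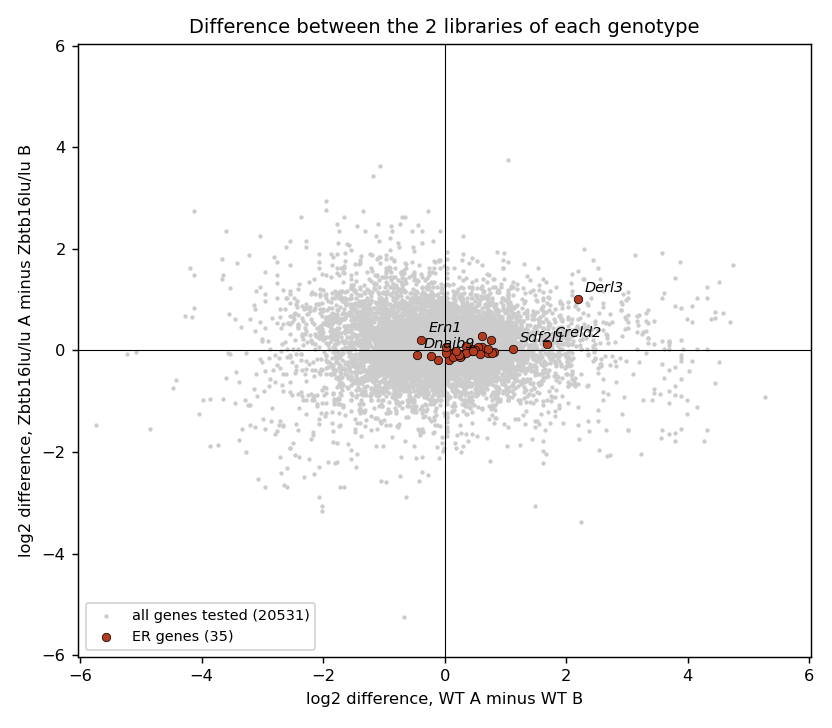
Each point is a gene, placed by the log2 difference between WT A and WT B (horizontal axis) and between Zbtb16lu/lu A and Zbtb16lu/lu B (vertical axis), in grey for the 20531 genes tested and in red for the 35 ER genes. The red points spread to the right, out to 2.19 for Derl3, and most stay near 0 on the vertical axis.

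Marker genes of other cell types also varied between libraries. The GMP gate (c-Kit+, Sca-1-, Cd34+ and FcγR+, after lineage depletion with antibodies that include Gr-1, Ter-119 and B220) should remove mature neutrophils, erythroid cells and B cells, and these values do not tell such cells from expression within GMPs. The summed level of the 11 mature neutrophil markers was 14174 in WT A, 6478 in WT B, 10520 in Zbtb16lu/lu A and 21044 in Zbtb16lu/lu B, most of it from S100a8 and S100a9. Both Zbtb16lu/lu libraries lay above both WT libraries for 7 of the 11 (21.7% of all genes tested), namely Ly6g, Camp, Ltf, Ngp, Retnlg, Mmp8 and Mmp9, and below for 0. Ltf, for example, had 56.7, 11.6, 305.3 and 846.0 normalized counts, and Ly6g 3.0, 4.8, 19.5 and 21.1. The summed level of the 6 erythroid and megakaryocyte markers was 1997, 4540, 1623 and 2874 in the same order, and that of the 5 mast cell and basophil markers 9003, 8753, 6356 and 8120. The sum over the 8 monocyte and dendritic markers was 42002, 50071, 58383 and 62302. For 4 of the 8 both Zbtb16lu/lu libraries lay above both WT libraries (21.7% of all genes tested). WT A was thus lowest in the monocyte sum and highest in the mast cell sum. Both WT libraries were above both Zbtb16lu/lu libraries in the mast cell sum and for 2 of its 5 markers (22.1% of all genes tested). These were Prss34 (1743, 944.2, 778.3 and 846.0) and Gata2 (701.0, 606.6, 520.2 and 565.0), while Cpa3, Mcpt8 and Fcer1a overlapped between genotypes. These markers thus varied between the libraries. The monocyte and mast cell sums did not overlap between genotypes, whereas the neutrophil sum did. The part of these markers in the results was not tested. Plasma cells are rich in ER chaperones, and of their markers Pou2af1 was between 0 and 1.0 normalized counts and Jchain between 0 and 11. Mzb1 had 7.0, 0, 2.1 and 0, and Sdc1 94.5, 33.8, 70.9 and 65.2, both highest in WT A. Of the 9 B and plasma cell markers 7 stayed under 20 in every library, Cd79b (1055 to 1270) and Sdc1 being the others, and of the 4 T and NK cell markers 3 did, with Nkg7 at 11056 to 11712. In bulk RNA, fewer cells of a type and less RNA per cell cannot be told apart.

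Calr was the most abundant of the 35 genes when normalized counts were divided by exon length. It encodes calreticulin, a calcium-binding lectin chaperone. Its level per kb of exon was 64301 in WT A, 50615 in WT B, 47065 in Zbtb16lu/lu A and 44587 in Zbtb16lu/lu B, which placed it at rank 30, 45, 55 and 68 of 20103 genes with a length. Hspa5, which encodes the ER Hsp70 chaperone BiP, had 32789, 18519, 15178 and 15578 per kb. P4hb, a protein disulfide isomerase, had 27145, 22884, 22634 and 24075. Hspa5 and P4hb changed places between the WT libraries, so these neighbours did not differ beyond their spread. Hsp90b1 (the ER Hsp90, GRP94) followed with 22024 per kb in WT A and 16002 in WT B, and Canx (calnexin) with 13858 and 12833. Canx lay below all others of the 5 in every library. At the other end was Derl3, a derlin of ER-associated degradation, with a WT mean of 54.6 per kb, then Derl2 (231) and Dnajb9 (246). In 416b cells with the Empty vector Calr was again the highest, at 21225 per kb, and the rank correlation of levels per kb between the WT mean and the Empty vector library was 0.87 over 34 genes. That value is a description across genes, and the 2 tables were normalized separately.

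**Figure D2:**
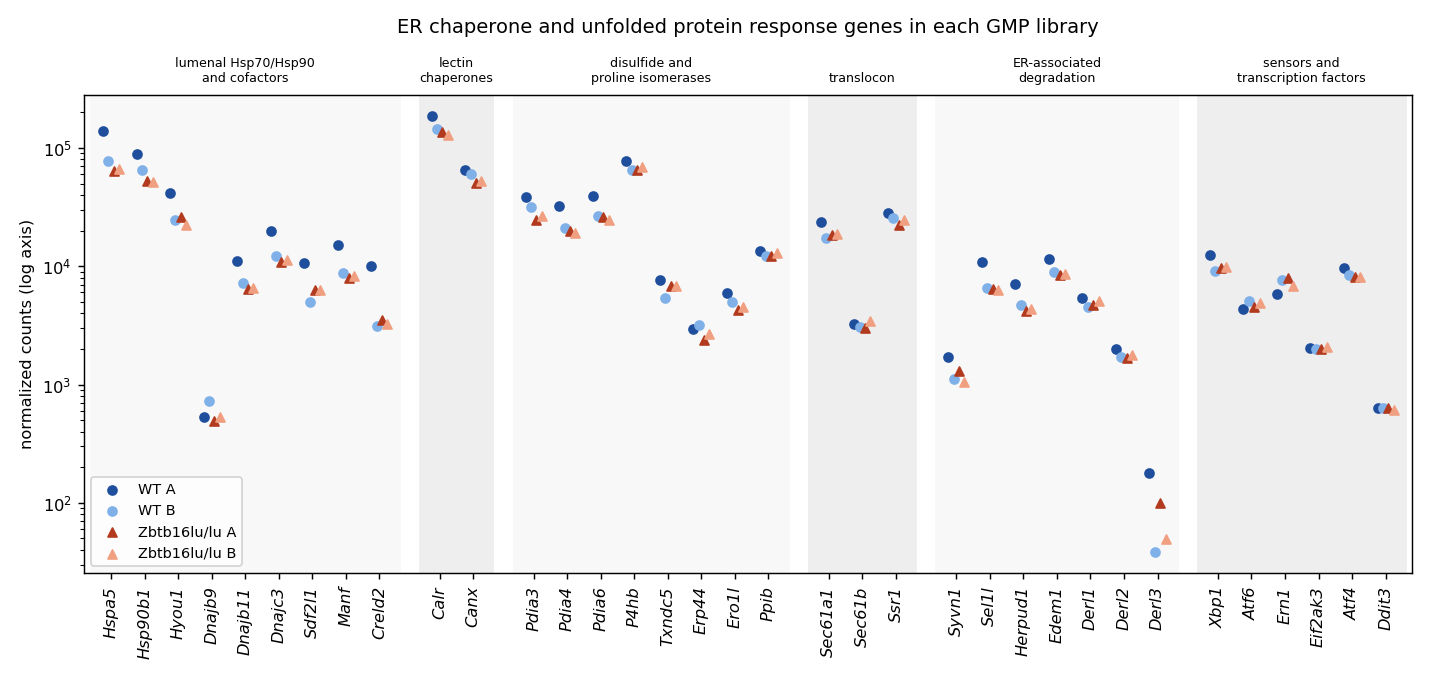
Normalized counts (log axis) of the 35 ER genes in the 4 GMP libraries, grouped by role, with circles for WT and triangles for Zbtb16lu/lu. The dark blue circle of WT A is on top for 29 genes, whereas the other 3 libraries often lie together.

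Between genotypes, 31 of the 35 ER genes were lower in Zbtb16lu/lu GMPs than in WT GMPs, while 50.9% of all genes tested were. The median log2 difference (Zbtb16lu/lu minus WT, on log2 of the normalized count plus 1) was -0.25 for the ER genes and -0.01 for all genes tested. None of the 35 passed the threshold of 0.08 on the limma adjusted p, the lowest being 0.422, and neither did any of the 20531 genes (0% called, lowest adjusted p 0.299). At an unadjusted limma p under 0.05 there were 9 of the ER genes lower and 0 higher, against 4.37% and 5.5% of all genes tested. These 9 were Pdia3, Hsp90b1, Hspa5, Dnajb11, Ero1l, Herpud1, Dnajc3, Manf and Canx. Both Zbtb16lu/lu libraries lay below both WT libraries for 17 of the 35 (22.1% of all genes tested), and for 0 did both lie above (21.7%). Nothing is read from these counts about the list, since its names were chosen with them known. DESeq2 on the whole reads, as an alternative, called 3 of them lower, Hspa5, Hsp90b1 and Pdia3, where 0.455% of its 12968 genes with an adjusted p were called lower. The edgeR quasi-likelihood test on the same reads called 0, with 11 lower and 0 higher at an unadjusted p under 0.05, against 4.64% and 5.27% of all genes tested.

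The size of the difference depended on WT A. With the A libraries only, 33 of the 35 genes were lower in Zbtb16lu/lu, with a median log2 difference of -0.40, where 50.6% of all genes tested were lower. With the B libraries only, 23 were lower, with a median of -0.07, where again 50.6% of all genes were lower. When WT A was left out, 22 were lower (51.4% of all genes tested) and the median was -0.05. When WT B was left out, 32 were lower and the median was -0.43. These fits, which have 3 libraries, called 5 of the 35 without WT A (22.7% of all genes tested were called) and 22 without WT B (13.4%).

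**Figure D3:**
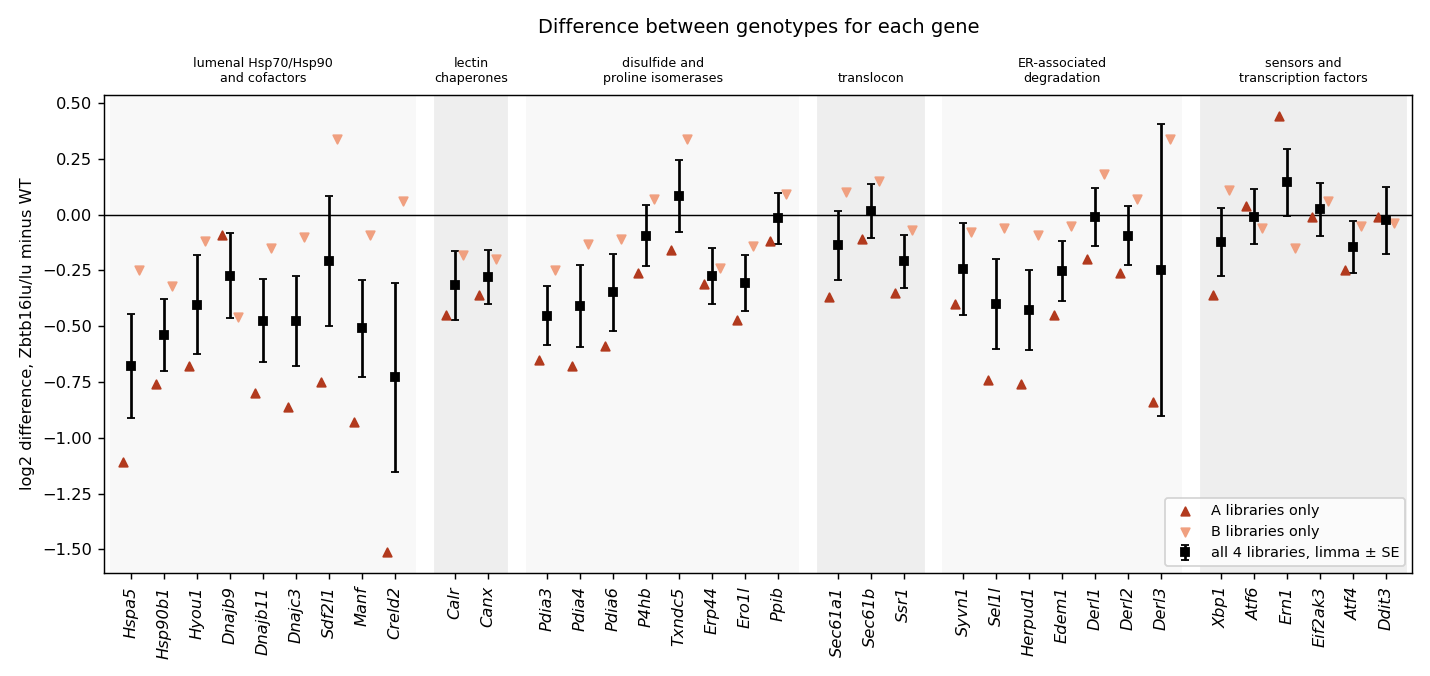
Log2 difference between Zbtb16lu/lu and WT for each ER gene, as black squares for the limma estimate from all 4 libraries with its standard error, red triangles for the A libraries and orange inverted triangles for the B libraries. The triangles of the A libraries lie mostly below those of the B libraries, and the distance between them is widest for Creld2 (-1.51 and 0.06).

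All 9 lumenal chaperones and cofactors were lower in Zbtb16lu/lu, with a median log2 difference of -0.48, and without WT A 7 of the 9 were lower with a median of -0.12. Hspa5 (chromosome 2 of mm10, 34771970 to 34777547, plus strand) had 138662 normalized counts in WT A, 78317 in WT B, 64188 in Zbtb16lu/lu A and 65879 in Zbtb16lu/lu B. The genotypes did not overlap, and WT A stood 1.77 times above WT B. Its log2 difference was -0.68 ± 0.23 (SE), with a limma adjusted p of 0.447, and it was -0.27 without WT A. Hsp90b1 (chromosome 10, 86690209 to 86705509, minus strand) had 88802, 64522, 52480 and 51639 in the same order. Again both Zbtb16lu/lu libraries were below both WT libraries, with a log2 difference of -0.54 ± 0.16 (limma adjusted p 0.422) and -0.31 without WT A.

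Creld2, an ER protein induced by ER stress, had the largest log2 difference of the 35, at -0.73 ± 0.42 (limma adjusted p 0.582). It had 10008 normalized counts in WT A, but 3101 in WT B, 3508 in Zbtb16lu/lu A and 3222 in Zbtb16lu/lu B. WT B was the lowest of the 4, so the genotypes overlapped, and without WT A the difference was 0.12. Manf, a secreted and ER-resident factor induced by ER stress, had 15119, 8820, 7952 and 8274. Here both Zbtb16lu/lu libraries were below WT B as well, by much less than below WT A, and the log2 difference of -0.51 became -0.12 without WT A. Sdf2l1, a cofactor of BiP, had 10722, 4940, 6354 and 6245, so that WT A and WT B lay on either side of the mutant libraries. Without WT A its log2 difference turned from -0.21 to 0.35.

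The J-domain proteins, which stimulate the ATPase of BiP, did not follow the same order. Dnajb11 had 11176, 7215, 6402 and 6507 normalized counts and Dnajc3 (p58IPK) 19837, 12130, 10944 and 11327. For both, the genotypes did not overlap and the log2 difference was -0.48, or -0.16 and -0.12 without WT A. Dnajb9 (ERdj4) had 528.0, 727.2, 495.5 and 529.9. It was the only one of the 9 in this group with WT B on top, and its log2 difference went from -0.27 to -0.50 without WT A. Hyou1 (the ER Hsp110) had 41730, 24547, 26036 and 22517, with WT B between the Zbtb16lu/lu libraries and a log2 difference of -0.40, which was -0.02 without WT A.

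Both lectin chaperones, which hold glycoproteins during folding, were lower in Zbtb16lu/lu without overlap. Calr had 185187, 145772, 135546 and 128410 normalized counts, and its log2 difference was -0.32 ± 0.16, or -0.14 without WT A. Canx had 65037, 60225, 50605 and 52432. The WT libraries were close here (0.11 apart on the log2 scale), and the difference of -0.28 ± 0.12 was -0.23 without WT A and -0.15 with GC and length offsets.

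Of the 8 disulfide and proline isomerases and oxidases 7 were lower in Zbtb16lu/lu, with a median log2 difference of -0.29 (-0.09 without WT A, with 5 lower). Pdia3, the isomerase that works with calnexin and calreticulin, had 38338, 31702, 24396 and 26591 normalized counts. Its log2 difference was -0.45 ± 0.13 (limma adjusted p 0.422) and -0.32 without WT A, the genotypes not overlapping. Pdia4 had 32138, 20955, 19994 and 19104, and Pdia6 39120, 26693, 25941 and 24815. In both the Zbtb16lu/lu libraries were just below WT B, so that log2 differences of -0.41 and -0.35 were -0.10 and -0.07 without WT A. P4hb had 77663, 65470, 64755 and 68879, where WT B lay between the Zbtb16lu/lu libraries. Ero1l, the oxidase that recharges the disulfide isomerases (log2 difference -0.31, or -0.18 without WT A), and Erp44, which retains it in the ER (-0.28), also showed no overlap of genotypes. Ero1l had between 4268 and 4496 normalized counts in Zbtb16lu/lu and between 4961 and 5902 in WT, and Erp44 between 2369 and 2690 and between 2941 and 3180. Erp44 and Dnajb9 were the folding genes with WT B above WT A. Ppib, a cyclophilin (12180 to 13346 over the 4 libraries), and Txndc5, a thioredoxin-type isomerase (5438 to 7677), had overlapping genotypes, with differences of -0.02 and 0.09. Txndc5 was at its lowest in WT B and was 0.33 higher in Zbtb16lu/lu without WT A, and Ppib was 0.05 higher.

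The 3 translocon genes had a median log2 difference of -0.14, which turned to 0.05 without WT A. Sec61a1 and Sec61b, subunits of the channel, had overlapping genotypes and log2 differences of -0.14 and 0.02, and without WT A that of Sec61a1 turned to 0.09. Sec61a1 ranged from 17403 normalized counts in WT B to 23747 in WT A, and Sec61b from 2998 in Zbtb16lu/lu A to 3428 in Zbtb16lu/lu B. Ssr1, of the translocon-associated complex, had 28430, 25744, 22358 and 24509 normalized counts, without overlap, and a difference of -0.21, or -0.14 without WT A.

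All 7 genes of ER-associated degradation were lower in Zbtb16lu/lu, with a median log2 difference of -0.25, but without WT A only 3 of the 7 were lower and the median was 0.02. Herpud1, a stress-induced membrane protein of the degradation complex, had 7029, 4677, 4150 and 4382 normalized counts. Sel1l, the adaptor of the ubiquitin ligase Syvn1 (HRD1), had 10811, 6592, 6471 and 6320. Both showed a gap between WT A and the other 3 libraries and no overlap of genotypes, with log2 differences of -0.43 and -0.40 that were -0.13 and -0.04 without WT A. Syvn1 had 1707, 1119, 1290 and 1057 and Edem1, which marks glycoproteins for degradation, 11457, 8994, 8362 and 8683. The genotypes overlapped for Syvn1 and not for Edem1. Derl3 had 179.0, 38.6, 99.7 and 49.2, the widest WT A to WT B ratio of the 35 (4.64 times). It was also the gene for which Zbtb16lu/lu A and B differed most, on the log2 scale by 1.01. Derl1 (4498 to 5371) and Derl2 (1678 to 2004) had log2 differences of -0.01 and -0.09 with overlapping genotypes, and WT B was the lowest library for Derl1. Without WT A the log2 differences between genotypes were 0.12 for Derl1, 0.02 for Derl2, 0.06 for Syvn1 and 0.84 for Derl3.

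The sensors and transcription factors had a median log2 difference between genotypes of -0.02, with 4 of 6 lower (-0.03 without WT A, again with 4 lower). Single genes went both ways. With the A libraries only, Ern1 was at 0.44 and Xbp1 at -0.36, and without WT A they were at -0.048 and 0.11. Ern1 had 5836 normalized counts in WT A, 7629 in WT B, 7923 in Zbtb16lu/lu A and 6871 in Zbtb16lu/lu B. WT A was the lowest library for Ern1, whereas it was the highest for 29 of the 35 genes. Atf6 was also lowest in WT A, with 4349, 5061, 4480 and 4850. Eif2ak3 had 2019, 1995, 2001 and 2078, and the 4 libraries were nearly level.

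Xbp1 had 12464, 9056, 9715 and 9794 normalized counts, so WT A was the highest and WT B the lowest. Gene counts do not tell the spliced form of Xbp1, which encodes the active factor, from the unspliced form. Atf4 had 9574, 8401, 8075 and 8132, with a log2 difference of -0.15 ± 0.12, and no overlap. It was -0.05 without WT A, -0.24 without WT B and -0.27 with GC and length offsets. Ddit3, the target of ATF4 in prolonged stress, had 637.4, 628.8, 634.3 and 610.2. Its WT libraries were 0.02 apart on the log2 scale, in the same pair of libraries in which Hspa5 was 0.82 apart and Creld2 1.69.

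The promoter sequences of the genes were then examined for the elements through which ATF6 and XBP1 act. RefSeq windows (build GRCm38.p6, the mm10 genome) that run from 250 bases before to 50 bases after a transcription start were found for 30 of the 35 genes, with Ero1l under its newer symbol Ero1a. Those without one were Hyou1, Manf, Sec61a1, Derl1 and Atf6. The ER stress element is CCAAT and CCACG, 9 bases apart, and was searched on both strands. It was present in 9 of the 30 genes and in 37 of the 27025 genes in the table (0.137%). Genes and word both belong to the unfolded protein response, so these shares describe the list and are not a test. The genes were Calr, Canx, Creld2, Derl3, Dnajc3, Hsp90b1, Hspa5, Pdia6 and Syvn1. Their elements, except that of Calr, read as follows, 5′ to 3′ on the strand where CCAAT comes first, with CCAAT and CCACG in capitals.

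Canx: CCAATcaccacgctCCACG
Creld2: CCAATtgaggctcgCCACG
Derl3: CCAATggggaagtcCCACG
Dnajc3: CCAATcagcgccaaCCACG
Hsp90b1 (near the start): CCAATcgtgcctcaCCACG
Hsp90b1 (farther from the start): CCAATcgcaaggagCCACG
Hspa5: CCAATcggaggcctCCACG
Pdia6: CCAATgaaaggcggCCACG
Syvn1: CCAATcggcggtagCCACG

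The element of Hspa5 is at chr2:34772025-34772043, from -65 to -47 relative to the start. Those of the other genes lay between -212 (the farther element of Hsp90b1) and -26 (Syvn1). Hsp90b1 was the only member with more than 1 exact match in its window. Sites that differ from the word by a base were not counted. An example is CCAAT and CCAAC, 9 bases apart, upstream of the element in the Hspa5 window. A gene without a match may thus still carry such a site. The 9 spacer bases differ between the sites, whereas the ends are fixed by the search. The whole window of Hspa5 (chr2:34771840-34772139, plus strand) is given next, with the ends of the element in capitals.

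Hspa5: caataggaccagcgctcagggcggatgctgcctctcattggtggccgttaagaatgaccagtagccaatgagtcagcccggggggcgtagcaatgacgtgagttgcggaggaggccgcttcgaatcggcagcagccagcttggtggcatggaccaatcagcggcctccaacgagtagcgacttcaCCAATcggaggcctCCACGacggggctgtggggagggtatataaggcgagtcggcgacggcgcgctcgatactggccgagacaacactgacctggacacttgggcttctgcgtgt

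The window of Creld2 (chr15:88819396-88819695, plus strand), the gene with the largest difference between genotypes, carries the element on the other strand, so that it reads CGTGG and ATTGG here.

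Creld2: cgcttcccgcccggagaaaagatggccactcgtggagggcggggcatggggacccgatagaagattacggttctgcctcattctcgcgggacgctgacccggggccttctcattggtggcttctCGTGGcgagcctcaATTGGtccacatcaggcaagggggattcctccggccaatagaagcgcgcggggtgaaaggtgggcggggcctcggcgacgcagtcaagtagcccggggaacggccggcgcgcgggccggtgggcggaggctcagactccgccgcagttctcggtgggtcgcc

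A related word, ER stress element II (ATTGG and CCACG, 1 base apart), was found in 2 of the 30 genes and in 0.0444% of all genes with a window. They are Dnajb11 and Herpud1, and that of Dnajb11 is given with both parts in capitals.

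Dnajb11: ATTGGcCCACG

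Dnajb11 carries it just after its start (8 to 18) and Herpud1 from -52 to -42. The word TGACGTGG, the core of the UPR element that XBP1 binds, was found in the window of Txndc5 (0.714% of all genes with a window). TGATGCAA, a core of the amino acid response element that ATF4 binds, was found in the window of Herpud1 (1.03%). A match is a run of letters in these windows and was not tested for binding.

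The 11 genes with an exact match to either ER stress element were higher in WT A than in WT B, in 11 of 11 cases. Their median log2 difference was 0.61. The 19 genes with a window and no exact match to either had a median of 0.23, with 16 of 19 higher in WT A. Over all genes tested, 10463 of 20531 were higher in WT A, with a median of 0.01. Derl3 and Creld2 headed the first group, at 2.19 and 1.69, and Canx was at its low end with 0.11. Sdf2l1 (1.12) and Sel1l (0.71) were high without a match. Between genotypes the median log2 difference was -0.43 for the 11 genes and -0.15 for the 19. Without WT A these medians were -0.13 and -0.04. The values describe a list chosen with the WT libraries in view, and the difference between the 2 sets was not tested.

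**Figure D4:**
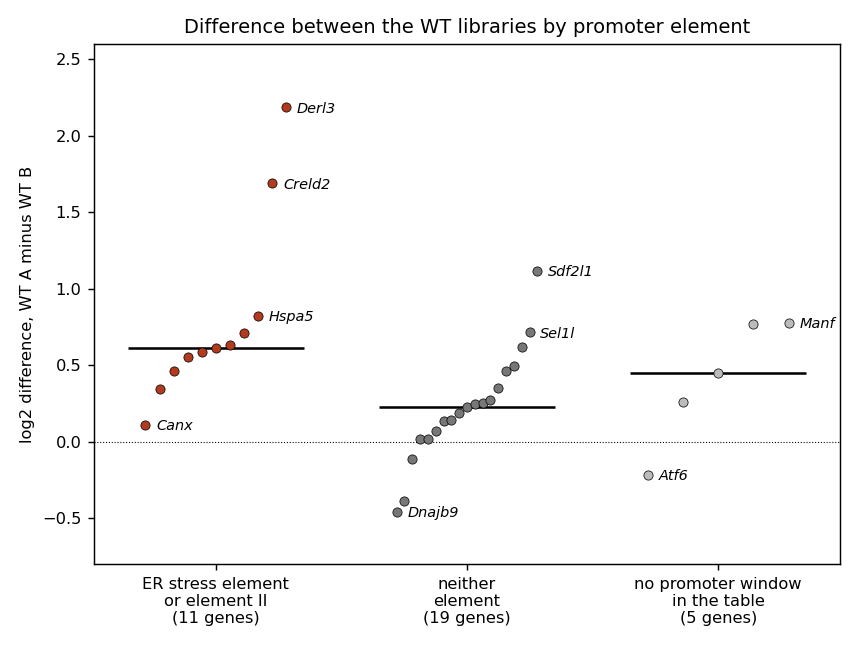
Log2 difference between WT A and WT B of each ER gene. Genes are grouped by an exact match to the ER stress element or element II in the promoter window, neither, or no window in the table. Each point is a gene and the line is the median, at 0.61 for the 11 genes with an element and 0.23 for the 19 without.

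Other genes of the same pathways were examined as 6 further lists, which hold 190 genes without the 35, and 181 of them were tested. Of these, 127 were lower in Zbtb16lu/lu (50.9% of all genes tested were), with a median log2 difference of -0.11. None passed the limma threshold, and at an unadjusted limma p under 0.05 there were 16 lower and 1 higher, where 4.37% and 5.5% of all genes tested were. WT A was the highest library for 108 of the 181 (59.7%, with 27.9% over all genes tested). Without WT A, 106 were lower and the median was -0.04.

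Vesicle export genes (COPII and ER exit) had the largest median log2 difference between WT A and WT B of the 6 lists, at 0.24. WT A was on top for 27 of the 34 tested. In Zbtb16lu/lu 29 were lower, with a median log2 difference of -0.14 (-0.05 without WT A, with 19 lower). Sec24a, a cargo adaptor of the COPII coat, had 701.0, 738.8, 555.2 and 451.6 normalized counts and a difference of -0.52. Ergic2 and Sec23b had differences of -0.33 and -0.32, that of Sec23b being -0.17 without WT A. Genes of N-glycan processing and the oligosaccharyltransferase were similar, with 21 of 30 lower, WT A on top for 24 and a median of -0.11, and without WT A 17 of 30 were lower with a median of -0.04. Alg9, a mannosyltransferase that builds the lipid-linked glycan, had 1976, 1698, 1290 and 1262 and a difference of -0.52 (limma adjusted p 0.37), and Magt1, an oligosaccharyltransferase subunit, -0.28.

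In the translocon, signal recognition and signal peptidase list WT A was the highest library for 15 of 24 genes (62.5%), with a median log2 difference between WT A and WT B of 0.10. In this list 20 of 24 genes were lower in Zbtb16lu/lu, and both Zbtb16lu/lu libraries lay below both WT libraries for 16 of 24 (66.7%, with 22.1% over all genes tested). The median log2 difference was -0.17. It was -0.12 without WT A, with 18 of 24 lower, and -0.065 with the B libraries only, with 17 lower. Ssr3, a partner of Ssr1, had 16843, 16150, 12734 and 13933 normalized counts and a difference of -0.31. Wrb, a receptor for tail-anchored proteins, had 1078, 994.3, 766.9 and 803.9 and a difference of -0.40, and Srpr, the signal recognition particle receptor, -0.30 (-0.19 without WT A).

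In the further ER-associated degradation list 21 of 31 genes were lower, with a median log2 difference of -0.08 (-0.07 without WT A). Edem3, a relative of Edem1, had 5051, 4585, 3573 and 3885 normalized counts and a difference of -0.37, and Ubxn4 -0.29 (-0.17 without WT A). Of the other folding enzymes and chaperones 19 of 32 were lower (median -0.07, or -0.015 without WT A and -0.03 without WT B), with Qsox2 at -0.39 (-0.17 without WT A), Hspa13 at -0.38 and Ero1lb at -0.34. Of the further stress sensors, transcription factors and targets 17 of 30 were lower (median -0.05, or -0.02 without WT A). Creb3l2, an ER-bound transcription factor of the ATF6 type, had 883.0, 872.8, 650.8 and 645.3 and a difference of -0.44, and Eif2s1, the translation factor that PERK phosphorylates, -0.29. Crebrf was the gene in the other direction, with 512.1, 784.1, 854.3 and 927.3 and a difference of 0.49, or 0.18 without WT A. The genes named from these lists were chosen at an unadjusted p under 0.05, which nearly fixes that their genotypes do not overlap. Over the 181 tested, both Zbtb16lu/lu libraries lay below both WT libraries for 70 and above for 17 (22.1% and 21.7% of all genes tested).

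Gain of PLZF in 416b cells left the ER genes nearly level. The log2 ratios (PLZF-Flag over Empty vector, 1 added to both counts) ran from -0.20 (Erp44) to 0.11 (Ddit3) over the 34 genes, with a median of -0.01 and 19 of them lower. Over all 11836 genes with a mean of at least 10 the median was 0.00. None of the 34 was at least 0.5 away from 0 with its 95% interval on 1 side of 0, where 1.09% of all genes were so higher and 2.1% lower. There is 1 library per condition, so no test between conditions was possible, and the exact binomial intervals cover counting error only.

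Hspa5 had 26048 normalized counts with the Empty vector and 26207 with PLZF-Flag, so that the log2 ratio was 0.01 (95% interval -0.02 to 0.04). This interval is narrow because Hspa5 had 43042 and 15860 reads. The ratio of Hsp90b1 was -0.05 (-0.08 to -0.02) and that of Creld2 was 0.02 (-0.08 to 0.11). These 3 genes, with the largest differences in GMPs, were thus within 0.1 of 0 here. Calr had 61128 and 54195, a ratio of -0.17 (-0.19 to -0.16), and Canx 23980 and 21937 (-0.13, interval -0.16 to -0.10). Both lectin chaperones were therefore below the Empty vector by more than counting error, as were Erp44 (-0.20), Atf6 (-0.16), Sec61a1 (-0.15) and Dnajc3 (-0.14).

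In all, the interval lay below 0 for 12 of the 34 genes and above 0 for 3, where it did so for 15.9% and 16.1% of all genes with a mean of at least 10. The shares are not directly comparable, since the ER genes were read more deeply and their intervals were narrower (median width 0.12, with 0.25 over all genes). The 3 above were Pdia6 (0.10), Manf (0.08) and Ppib (0.04). The other genes with an interval below 0 were Hyou1 (-0.10), Pdia4, Herpud1 and Atf4 (each -0.08), Ssr1 (-0.07) and Hsp90b1. Among the sensors and factors Xbp1 had a ratio of 0.07 (-0.01 to 0.15), Ern1 of 0.01 (-0.16 to 0.17), Eif2ak3 of -0.01 (-0.25 to 0.22) and Ddit3 of 0.11 (-0.09 to 0.30), so a change was not detectable for these at this depth. For Eif2ak3, with 569 and 207 reads, the interval allows a change of up to 0.25 in size.

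**Figure D5:**
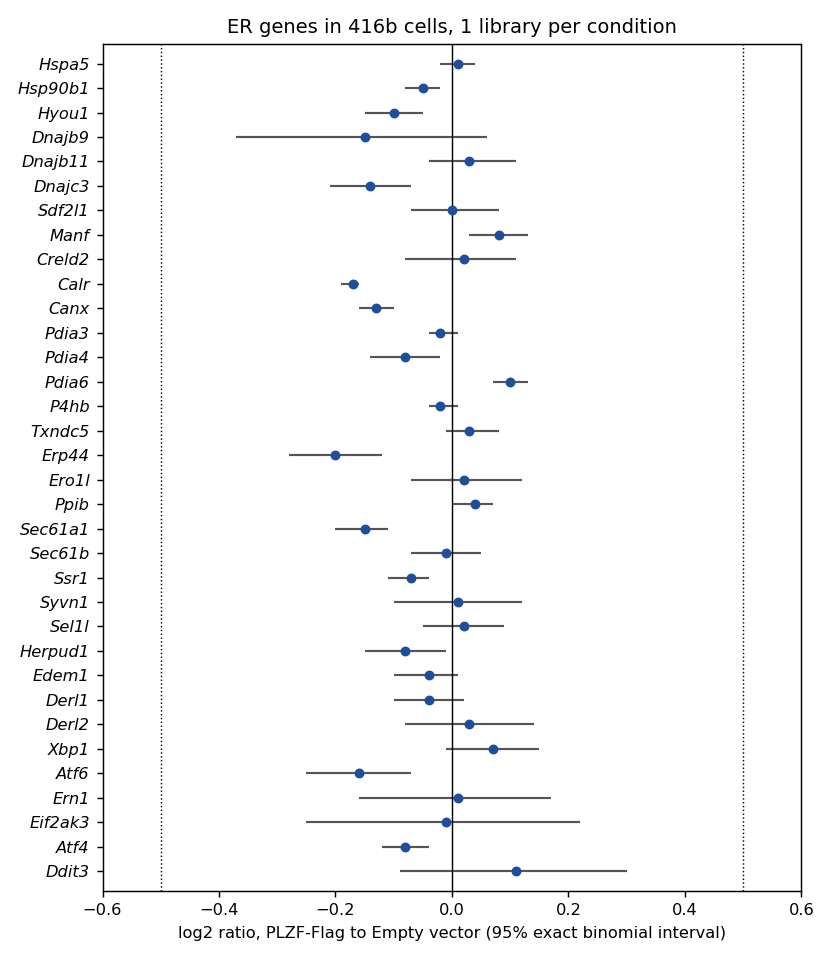
PLZF-Flag over Empty vector, as a log2 ratio, for the 34 ER genes in 416b cells, with 95% exact binomial intervals as bars and dotted lines at -0.5 and 0.5. Every gene lies between the dotted lines, Erp44 at -0.20 being the lowest and Ddit3 at 0.11 the highest.

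The further lists had median log2 ratios between -0.08 (N-glycan processing and oligosaccharyltransferase, 31 genes) and 0.01 (other folding enzymes and chaperones, 30 genes). Past 0.5 with an interval on 1 side of 0 were 2 of their 174 genes, both higher, a share close to the 1.09% of all genes. They are named after their values were seen. Uggt2, which re-glucosylates misfolded glycoproteins, had 52.0 and 85.9 normalized counts, a ratio of 0.71 (0.20 to 1.24). Cdnf, a relative of Manf, had 44.8 and 74.4, a ratio of 0.72 (0.16 to 1.29). Both rest on fewer than 100 reads in each library.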

How the data were processed

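Of the series, RNA-seq of GMPs and of 416b cells was used here, and ChIP-seq and ATAC-seq were not. Reads of stranded total RNA (GMPs) or low-input SMART-Seq libraries (416b) were aligned to mm10 by the authors with subread-align and assigned to genes with featureCounts (version 1.5.0 in the submitters' processing notes). The signal values deposited by the authors are these read counts after scaling by the size factor that DESeq2 gives each library. Means, log2 values, fold changes and p-values of the authors are in the same tables and were left aside. The members and lists were chosen with earlier results of these data known.

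In each GMP column 100% of values were whole multiples of the value of 1 read (within 0.01), which gave 37562999 to 40170636 reads. In 416b cells 84.8% and 85.5% of values were whole (within 0.1), from 54529930 and 19995828 reads in Empty vector and PLZF-Flag.

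GMP genes reaching 10 in 2 or more libraries entered limma-trend on log2(value + 1), adjusted by Benjamini-Hochberg, threshold 0.08, in place of a count test because the values are normalized. The edgeR and DESeq2 tests on whole reads were alternatives. For 416b cells, log2 ratios with a pseudocount of 1 were used. Both were tested on simulated data. Levels per kb used GENCODE exon lengths, and 82 gene names on more than 1 row were kept apart. The genes given in full are the 6 sensors and factors, the 12 with the largest GMP difference, the 5 with the highest WT level per kb, and up to 3 per further list at an unadjusted p under 0.05. Sdf2l1, Ssr1, Edem1, Syvn1, Dnajb9 and Derl3 were also given after their values were seen. Versions were limma 3.58.1, DESeq2 1.42.0 and edgeR 4.0.16 in R 4.3.3, and Python 3.11.15.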

Additional observations from a re-analysis of the deposited data

How the results depend on the processing

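No paired analysis was possible because the library columns carry no replicate numbers, and a block on the 3 dates would leave no residual spread. A term for the shared date alone was not fitted. No gene was called at a threshold of 0.05 either. The number of ER genes at an unadjusted p under 0.05 was 9, 3 without a filter on low values, 0 without an intensity trend and 14 with DESeq2, which called 220 genes in all (161 higher), 3 of the 35 ER genes and 1 gene of the further lists (Alg9). The other settings of the GMP fit gave 7 to 11.

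Leaving out each GMP library in turn moved the number of genes called from 1 to 4662, of ER genes called from 0 to 22, of ER genes at an unadjusted p under 0.05 from 3 to 24, and of further list genes called from 0 to 52. These fits have 3 libraries and assume that the lone library varies like the pair. The highest counts of ER genes, 22 called and 24 at an unadjusted p under 0.05, came without WT B, where 2749 genes (13.4% of those tested) were called and 22.8% were at an unadjusted p under 0.05. Without WT A, 4662 genes (22.7%) were called, and of the ER genes Pdia3, Erp44 and Dnajb9 were called lower and Sdf2l1 and Txndc5 higher. Over these fits log2 differences ran from -0.35 to 0.11 for Xbp1, -0.048 to 0.34 for Ern1, -1.57 to 0.12 for Creld2, -0.22 to 0.029 for P4hb, -0.12 to 0.10 for Atf6, -0.0042 to 0.05 for Eif2ak3 and -0.053 to 0.0028 for Ddit3.

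Among sensors and factors the sign also turned for Atf6 with quantile normalization (0.031), GC and length offsets (0.064) and the A libraries only (0.043). It did so for Eif2ak3 with the offsets (-0.01) and the A libraries only (-0.013), and for Ddit3 with the offsets (0.056). With the B libraries only, a comparison chosen after seeing the data, the sign turned for Xbp1 (0.11), Ern1 (-0.15), Creld2 (0.055) and P4hb (0.073). Of the other ER genes it turned for Sdf2l1 and Derl3 (each 0.34), Derl1 (0.18), Sec61a1 (0.1), Ppib (0.09) and Derl2 (0.07). The causes were not tested. The median over the ER genes stayed below 0 in every setting run, from -0.43 to -0.05. No setting run moved a 416b ratio of the 34 ER genes, or of Uggt2 and Cdnf where the filter kept them, outside its interval, or brought an ER gene past 0.5. With 2 libraries per genotype that differ this much in WT, the size of the GMP differences is poorly fixed, and depth limits the 416b values of genes with few reads.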
